A study of Mus musculus with 6 samples.

Results

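The transcripts described here encode 8 structural proteins of the sarcomere, the contractile unit of striated muscle. They were chosen by name as the rows of the deposited table for 3 myosin-binding proteins (Mybpc1, Mybpc2 and Mybph), 3 myomesins (Myom1, Myom2 and Myom3) and the giant proteins titin (Ttn) and nebulin (Neb). All 8 were found among the 16759 genes of the table, and all 8 passed the filter on low values. RNA sequencing was performed on hind leg muscles of 3 control (Con) and 3 exercise (EX) mice, with 1 library per mouse. All 6 animals were male C57BL/6J mice, an inbred strain, and were 8 weeks old when the experiment began. EX mice ran on a treadmill for 60 min a day, 5 days a week for 6 weeks, over 22 km per mouse, with the last session 24 h before tissue was taken, whereas Con mice were not trained. RNA came from a small piece of perfused muscle from which intermuscular fat had been removed, and the hind leg muscle it was cut from is not given in the sources used here.

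In each sarcomere, thick filaments of myosin slide along thin filaments of actin. Myosin-binding proteins C sit in stripes on the thick filament and limit how freely myosin heads reach actin, and myosin-binding protein H is a shorter relative that lies in the same region. Myomesins cross-link thick filaments in the M-band, at the centre of the sarcomere, titin spans the distance from the Z-disc to the M-band as a molecular spring, and nebulin runs along the thin filament and helps to set its length. The 3 groups of proteins therefore belong to neighbouring parts of one lattice, and the comparison asked whether their transcripts differed between trained and untrained muscle.

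For every library the table of the authors holds an estimated count, an FPKM and a TPM value of each gene. Total counts ranged from 13845362 to 16240431 per library, and the 8 members together took at most 2.05% of them in any library. CPM, used below to compare a gene between mice, are counts rescaled to a common library size (TMM scaling), and TPM, which also divide by transcript length, are used to compare genes with one another. Differences were tested by the quasi-likelihood method of edgeR on the 10883 genes whose mean FPKM reached 1, p-values were adjusted by Benjamini-Hochberg, and a gene was called at an adjusted p under 0.05. The tissue was rich in skeletal muscle transcripts, with the 6 identity markers (Acta1, Ckm, Mb, Pvalb, Myh4 and Des) together between 122600 and 127840 CPM in Con and between 132180 and 139100 CPM in EX.

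Of the 8 members, 5 were called. Mybph, Mybpc2, Myom1 and Myom2 rose in EX muscle, Mybpc1 fell, and Myom3, Ttn and Neb did not pass the test. Among all genes tested, 17.9% were called, 9.11% higher and 8.8% lower in EX. These are abundant transcripts, and of the 1414 genes that averaged 100 CPM or more, which include 7 of the members, 36.4% were called. The CPM of the EX mice lay wholly above or wholly below those of the Con mice for 6 members, and this was so for 33.7% of all genes tested. The median log2 fold change of the 8 members was 0.11, against -0.0009 for all genes tested. The calls of Mybpc1 and Mybph held in each of 16 alternative analyses, while those of Mybpc2 and Myom1 did not hold in 6 and 7 of them, as described below.

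**Figure D1:**
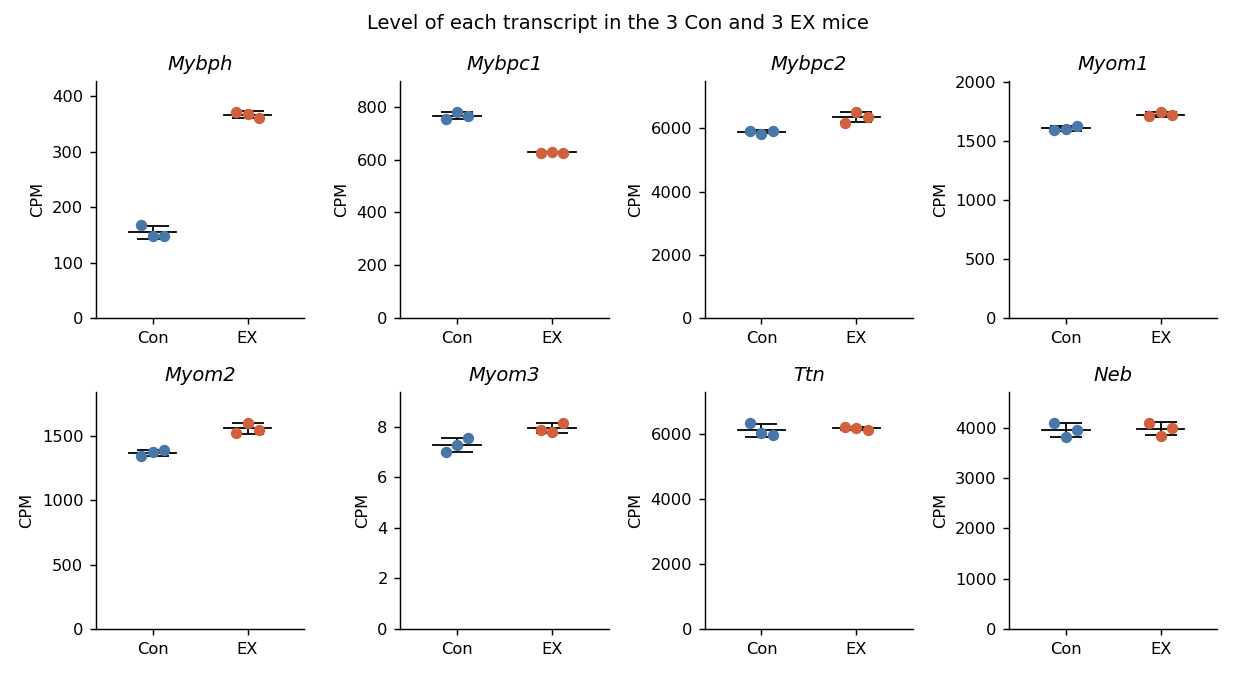
Level of each member in CPM (vertical axes, from 0) in the 3 Con mice (blue points) and the 3 EX mice (orange points), with the group mean and SD in black. Mybph stands at 148 to 168 CPM in Con and 360 to 371 CPM in EX, Mybpc1 is lower in all EX mice, and the Ttn and Neb values of the groups overlap.

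Mybph had by far the largest change of the 8. This protein binds myosin through its carboxy-terminal domains and lacks much of the amino-terminal part of the C proteins. Mybph (gene 53311) was measured at 167.5, 148.2 and 147.9 CPM in Con replicates 1 to 3 and at 371.4, 368.1 and 359.9 CPM in EX replicates 1 to 3. Each EX mouse thus had more Mybph than any Con mouse, and the 3 EX mice lay close together. The means were 154.5 ± 11.2 CPM (SD, n = 3) in Con and 366.5 ± 5.93 CPM (SD, n = 3) in EX, a 2.37-fold increase with a log2 fold change of 1.25 (standard error 0.04, 95% interval 1.16 to 1.34, adjusted p = 2.61e-18, edgeR's quasi-likelihood test). Only 0.276% of the genes tested changed by as much or more in either direction, and Mybph ranked 23 among the increases.

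Mybph has a neighbour on the opposite strand, Adora1, an adenosine receptor gene, which shares 1162 of the 2329 annotated exon bases of Mybph in GENCODE M21 (49.9%). Whether the authors' counting used strand is not given in the sources used here, so reads in the shared bases could have been assigned to either gene. Adora1 itself received 4, 6 and 1 counts in the Con mice and 10, 3 and 4 in the EX mice. For Mybph the counts were 2345, 2339 and 2368 among Con mice and 5911, 5805 and 5690 among EX mice, far more than the receptor gene in every library.

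Mybpc1, the isoform called slow-type although it is also made in fast fibres, fell. Its level (gene 109272) was 753.7, 780.2 and 764.2 CPM in Con and 624.6, 629.7 and 626.8 CPM in EX. The 3 EX mice agreed to within a few CPM and all lay below the lowest Con mouse. From 766.04 ± 13.4 CPM (SD, n = 3) in Con to 627.04 ± 2.57 CPM (SD, n = 3) in EX, the log2 fold change was -0.29 (standard error 0.03, 95% interval -0.36 to -0.22, adjusted p = 2.54e-07, edgeR's quasi-likelihood test), which corresponds to a change of -18.1%. The size of the drop was matched or exceeded in either direction by 10.7% of the genes tested.

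Mybpc2, the fast-type isoform and the most abundant member per length, rose slightly. Mybpc2 (gene 233199) stood at 5925, 5832 and 5922 CPM in Con and at 6182, 6514 and 6361 CPM in EX. The groups did not overlap, and the EX mice were spread more widely than the Con mice. The increase was 7.8% (log2 fold change 0.11, standard error 0.03, 95% interval 0.04 to 0.17, adjusted p = 0.0142, edgeR's quasi-likelihood test). On the TPM scale the groups did overlap, with 2626, 2602 and 2662 TPM in Con and 2624, 2679 and 2673 TPM in EX, and limma on log2(TPM + 0.1) gave a log2 fold change of 0.02 (adjusted p = 0.748). The median of all genes tested was -0.0912 in that fit and -0.0009 in edgeR, so that Mybpc2 lay above the median by 0.11 in both. The call was also lost in edgeR without Con replicate 2 (adjusted p = 0.0922), EX replicate 2 (0.0846) or EX replicate 3 (0.0813).

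Since these 3 proteins belong to one family that binds the thick filament, their transcripts were also expressed as shares of their summed TPM. The Mybph share was 5.21%, 4.69% and 4.65% in Con and 10.5%, 9.99% and 9.99% in EX. It went from 4.85% ± 0.31 (SD, n = 3) to 10.2% ± 0.31 (SD, n = 3), so that every EX mouse lay above every Con mouse (exact two-sided permutation test, p = 0.1, the smallest value that 3 mice against 3 allow, 0.133 after Benjamini-Hochberg adjustment over 8 shares and ratios). The Mybpc2 share went from 85.0% ± 0.22 to 82.3% ± 0.42 and the Mybpc1 share from 10.2% ± 0.26 to 7.49% ± 0.13 (SD, n = 3 each), both without overlap and with the same exact permutation p = 0.1. In Con muscle Mybpc1 transcripts outnumbered those of Mybph, at 315.07 against 150.2 TPM on average, and in EX muscle the order was inverted, at 241.9 against 328.2 TPM. Within the C proteins alone, Mybpc1 made up 10.5%, 11.0% and 10.6% of the sum of Mybpc1 and Mybpc2 in Con and 8.52%, 8.18% and 8.33% in EX. The slow-type part of this sum was therefore smaller in all 3 EX mice. The summed TPM of the 3 genes lay between 3066 and 3123 in Con and between 3205 and 3241 in EX.

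**Figure D2:**
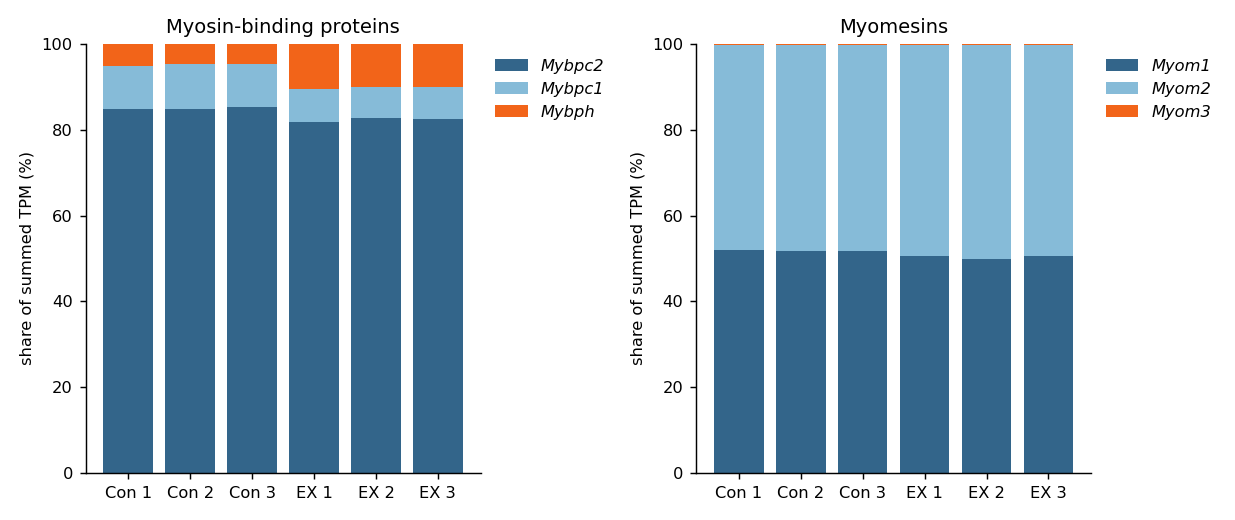
Share of summed TPM (percent, vertical axes) taken by each myosin-binding protein (left) and each myomesin (right) in every mouse. Mybph takes 4.65% to 5.21% of the myosin-binding transcripts in Con and 9.99% to 10.5% in EX, and the myomesin shares shift by 1.47 percentage points.

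The bases before the start sites of these 3 genes are shown because the 3 isoforms changed differently. Each line gives the 250 bases upstream of the start of the gene, 5′ to 3′ along the gene's own strand, from RefSeq on GRCm38.p6. They lie at chr1:134193198-134193447 on the plus strand for Mybph, chr10:88605153-88605402 on the minus strand for Mybpc1 and chr7:44524670-44524919 on the minus strand for Mybpc2. Capitals mark E-boxes (CANNTG, the letters read by MyoD-family factors) and MCAT elements (CATTCC on either strand, here as GGAATG, the letters read by TEAD factors).
Mybph: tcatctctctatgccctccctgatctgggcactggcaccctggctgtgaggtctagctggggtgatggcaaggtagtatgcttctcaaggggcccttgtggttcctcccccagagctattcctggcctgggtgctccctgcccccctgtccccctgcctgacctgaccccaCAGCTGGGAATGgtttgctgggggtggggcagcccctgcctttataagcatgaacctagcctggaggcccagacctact
Mybpc1: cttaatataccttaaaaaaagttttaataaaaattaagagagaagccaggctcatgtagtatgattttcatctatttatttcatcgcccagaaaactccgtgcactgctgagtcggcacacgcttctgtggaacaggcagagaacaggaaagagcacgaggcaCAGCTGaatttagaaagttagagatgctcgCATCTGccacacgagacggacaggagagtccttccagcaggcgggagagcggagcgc
Mybpc2: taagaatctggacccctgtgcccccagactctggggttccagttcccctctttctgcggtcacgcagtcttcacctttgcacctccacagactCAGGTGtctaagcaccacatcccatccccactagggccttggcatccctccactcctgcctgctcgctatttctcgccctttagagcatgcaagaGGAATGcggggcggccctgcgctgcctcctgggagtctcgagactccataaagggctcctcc
In Mybph the E-box, 79 to 74 bases before the start, is followed directly by the MCAT element at 73 to 68 bases, and the 2 do not overlap. Mybpc2 also holds 1 of each, with the E-box 157 to 152 and the MCAT element 62 to 57 bases before the start, while Mybpc1 holds 2 E-boxes (87 to 82 and 57 to 52 bases) and no MCAT match in this window. Of 32841 promoter windows of the same length, 66.2% hold an E-box and 12.6% an MCAT element on either strand. Among the other members, Myom1 holds 3 E-boxes and 1 CArG box, and Myom3 and Ttn hold 1 E-box and 1 MEF2 motif each, where 2.92% of all windows hold a MEF2 motif and 1.47% a CArG box. Neb and Myom2 had no entry, so 6 of the 8 members could be read. These matches describe letters only, and no binding was measured.

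Both abundant myomesins rose, Myom2 more than Myom1. Myom2, also called M-protein and typical of fast fibres, was measured at 1345, 1372 and 1389 CPM in Con and 1528, 1604 and 1546 CPM in EX (gene 17930). All EX mice were above all Con mice, by more than the spread within either group. The mean went from 1369 ± 22.5 to 1559 ± 40.1 CPM (SD, n = 3 each), an increase of 13.9% (log2 fold change 0.19, standard error 0.03, 95% interval 0.12 to 0.26, adjusted p = 1.23e-04, edgeR's quasi-likelihood test). With limma on log2(TPM + 0.1) the log2 fold change was 0.10 and the adjusted p 0.0705, and Myom2 lay above the median of all genes by 0.19 in either fit.

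Myom1 (gene 17929), the myomesin found in all striated fibres, stood at 1589, 1598 and 1626 CPM in Con and at 1709, 1744 and 1714 CPM in EX. The groups were again separate, but the rise was the smallest of the 5 calls. It was 7.35% (log2 fold change 0.10, standard error 0.03, 95% interval 0.04 to 0.17, adjusted p = 0.0231, edgeR's quasi-likelihood test). On the TPM scale the groups overlapped, at 466.02, 471.2 and 483.2 in Con and 479.9, 474.6 and 477.4 in EX. The call was lost with limma on log2(TPM + 0.1) (log2 fold change 0.01, adjusted p = 0.823), where Myom1 lay above the median of all genes by 0.10 as in edgeR, and in edgeR without Con replicate 2 (adjusted p = 0.101), EX replicate 2 (0.0891) or EX replicate 3 (0.0872). Myom1 shares 207 annotated exon bases (1.98%) with Myl12a on the opposite strand, and the change of Myl12a was -0.06 on the log2 scale (adjusted p = 0.299, edgeR).

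Myom3, the remaining myomesin, known mainly from intermediate fibres, was scarce. Only 98, 115 and 121 counts were assigned to it in Con mice and 125, 123 and 129 in EX mice, or 7.00, 7.29 and 7.56 CPM against 7.85, 7.80 and 8.16 CPM (gene 242702). The EX values were all higher by a small margin, but at this depth the 95% interval of the log2 fold change of 0.12 ran from -0.11 to 0.35, and the change did not pass the test (adjusted p = 0.495, edgeR's quasi-likelihood test). Of the summed TPM of the 3 myomesins, Myom1 made up 51.8% ± 0.19 in Con and 50.4% ± 0.37 in EX, and Myom2 47.9% ± 0.18 and 49.4% ± 0.37 (SD, n = 3 each). These 2 shares did not overlap between the groups (exact permutation p = 0.1 each, adjusted 0.133). The Myom3 share was 0.261% in Con and 0.260% in EX and overlapped (exact permutation p = 1.0). The summed TPM of the myomesins ranged from 895.7 to 932.5 in Con and from 945.8 to 950.1 in EX.

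The giant proteins gave no call. Titin carries the passive tension of the fibre and, at its M-band end, binds myomesin. Ttn (gene 22138) was at 6343, 6014 and 5966 CPM in Con and at 6201, 6166 and 6133 CPM in EX. The highest and the lowest value both belonged to Con mice, so the EX range lay within the Con range. The log2 fold change was 0.01 with a 95% interval from -0.05 to 0.08 (adjusted p = 0.813, edgeR's quasi-likelihood test), on between 88787 and 98706 counts per library. Neb (gene 17996) was at 4095, 3812 and 3961 CPM in Con and at 4101, 3839 and 3996 CPM in EX. The spread among mice of 1 group was larger than the difference between the group means. Its log2 fold change was 0.01 with a 95% interval from -0.06 to 0.08 (adjusted p = 0.903, edgeR). The ratio of Ttn to Neb in TPM was 0.385 ± 0.00853 in Con and 0.387 ± 0.0131 in EX (SD, n = 3 each, exact permutation p = 0.9).

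**Figure D3:**
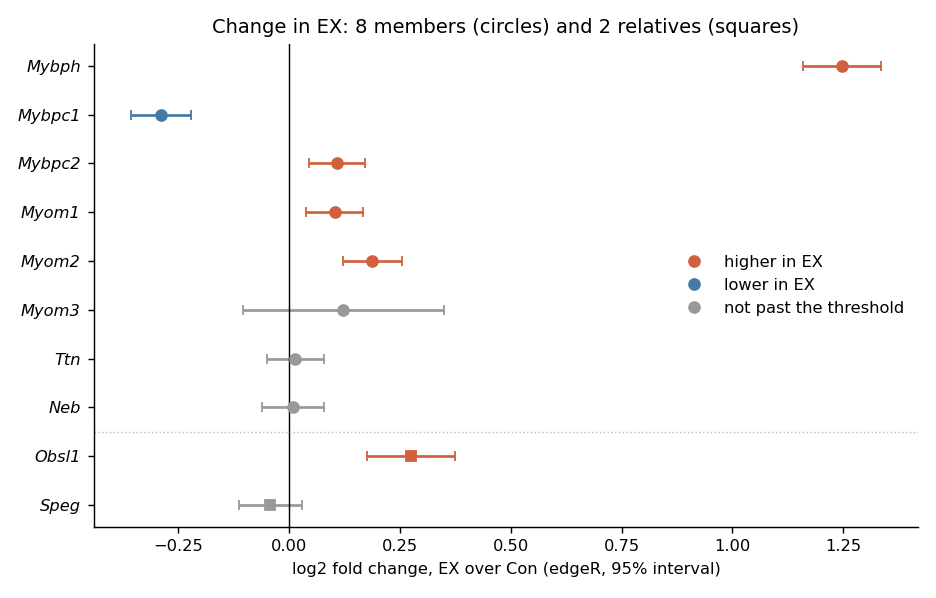
Log2 fold change of EX over Con (horizontal axis) with its 95% interval from edgeR for the 8 members (circles) and 2 related genes (squares). Mybph stands alone at 1.25, Mybpc1 lies at -0.29, and the intervals of Ttn, Neb, Myom3 and Speg include 0.

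Transcript length moved with the fold changes across the table, and this touches the giant transcripts. Lengths implied by the deposited counts and FPKM were near 88906 to 89207 bases for Ttn and 22177 to 22235 bases for Neb as group means. The median log2 fold change was 0.06 for the 1447 tested genes under 1000 bases, -0.0009 for the 4050 genes from 2000 to 4000 bases and -0.09 for the 346 genes of 8000 bases or more. Ttn and Neb, at 0.01 each, were above the median of that longest class. When the trend on length was removed with offsets for each library, the value of Ttn on the log2 scale was 0.18 (edgeR, adjusted p = 6.58e-05) and Neb 0.16 (adjusted p = 6.37e-04), which made 7 of the 8 members called. Only 4 tested genes were as long as Neb or longer, Ttn and Neb among them, with a median log2 fold change of 0.011 before the offsets. The smoothed trend applied at that length therefore rested largely on shorter genes. On the TPM scale, in contrast, the changes were -0.07 for Ttn (adjusted p = 0.225, limma) and -0.08 for Neb (adjusted p = 0.242). The median of all genes moved with the TPM scale to -0.0912, and relative to it Ttn was at 0.02 and Neb at 0.01, close to their 0.01 each in edgeR. What the length trend comes from was not tested.

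The implied length itself was nearly the same in both groups for most members. For Mybph it was 1531, 1526 and 1516 bases in Con and 1552, 1553 and 1555 bases in EX, a difference of 1.9% without overlap (exact permutation p = 0.1, adjusted 0.4 over the 8 members). The log2 fold change of Mybph was 1.13 from limma on log2(TPM + 0.1) and 1.25 from edgeR, or 1.22 and 1.25 above the median of all genes tested. Neb also differed without overlap, by -0.262% (exact permutation p = 0.1, adjusted 0.4), and the other 6 overlapped.

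Ordered by mean TPM over the 6 mice, the members ran from Mybpc2 at 2644 TPM through Myom1 (475.4), Myom2 (452.8), Mybpc1 (278.5), Neb (256.7), Mybph (239.2) and Ttn (98.99) to Myom3 at 2.43 TPM. Mybpc2 was the 36th most abundant of the 10883 genes tested and Myom3 the 9961st. The order of neighbours held in all 6 mice except between Mybpc1 and Neb, where Mybpc1 was higher in 4 mice, and between Neb and Mybph, where Neb was higher in 3. In Con muscle the middle of the order was Mybpc1 (315.07 TPM), Neb (263.7) and Mybph (150.2), and in EX muscle it was Mybph (328.2), Neb (249.7) and Mybpc1 (241.9). Mybph thus passed both of them between the groups, and the order of the other members was the same in both groups.

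Relatives of the members were taken from a list. Obsl1, which binds titin and myomesin at the M-band, rose from 54.3 ± 0.944 to 65.7 ± 2.73 CPM (SD, n = 3 each, log2 fold change 0.27, standard error 0.05, adjusted p = 1.47e-04), a call that was lost with limma on log2(TPM + 0.1) (adjusted p = 0.0626). Speg, a muscle kinase with immunoglobulin domains, changed by -0.04 (adjusted p = 0.443). Nebl, the cardiac relative of nebulin, lay under the filter with 5 to 12 counts per library (adjusted p = 0.905 when no filter was applied). The relatives of the C proteins, Mybpc3 and Mybphl, had no entry under these symbols among the genes of the authors' table.

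Beside the counts of the lists that follow, 17.9% of all genes tested were called, and 36.4% of those that averaged 100 CPM or more. Of 22 tested partners of titin, nebulin and the M-band, 5 rose, 6 fell and 11 did not pass the test, with a median log2 fold change of -0.04. The 4 largest called changes were those of Ankrd2 (-0.78, adjusted p = 5.4e-10, edgeR), a stretch-responsive protein bound to the I-band part of titin, Nrap (-0.40, adjusted p = 3.15e-09), a nebulin-related scaffold of myofibril assembly, Fhl1 (0.35, adjusted p = 2.28e-08), a LIM protein that binds titin, and Trim63 (-0.30, adjusted p = 1.59e-06), the ubiquitin ligase MuRF1 at the M-band. Ankrd2 went from 36.5 to 21.2 CPM and Nrap from 1648 to 1245 CPM on average. Of 11 genes for assembly and phosphorylation of the thick filament, 4 rose, 2 fell and 5 did not pass. Hsp90aa1, a chaperone that folds myosin, rose by 0.45 (adjusted p = 1.19e-07) and Smyd1, a methyltransferase needed for myosin assembly, by 0.19 (adjusted p = 1.3e-04). Igfn1, a sarcomeric immunoglobulin protein, changed by -0.44 (adjusted p = 1.54e-08), and Prkaca, a catalytic subunit of the kinase that phosphorylates myosin-binding protein C, rose by 0.16 (adjusted p = 0.00929).

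Mybpc1 and Mybpc2 are named for slow and fast fibres, so the fibre-type genes of the same libraries are given beside them. Of 9 tested slow fibre genes, 8 rose and 1 fell, with a median log2 fold change of 3.48, led by Myh7 (6.65), Tnni1 (4.84), Tnnc1 (4.84) and Tnnt1 (4.26). The filter averages over both groups. Myh7 (0.26 TPM in Con, 24.7 in EX) and Tnni1 (0.777 and 21.0) passed it only through EX. Myh7b, the listed gene under the filter, changed by -0.02 in edgeR without the filter. The count and the median therefore depend in part on the filter. The summed level of the 9 tested genes was between 165 and 176 CPM in Con and between 428 and 455 CPM in EX. Mybpc1 alone stood at 624.6 to 780.2 CPM. Most of the Con sum came from Atp2a2 (54.0 CPM on average), Tpm3 (43.2), Myl3 (42.5) and Myoz2 (24.6). The leading genes had few counts per Con mouse, 13 to 19 for Myh7, 4 to 8 for Tnni1, 6 to 9 for Tnnc1 and 15 to 30 for Tnnt1. Their large fold changes therefore start from low Con levels. Mybpc1 fell in the same libraries in which 8 of the 9 tested slow fibre genes rose. Of 12 fast fibre genes, 8 rose and 2 fell, with a median of 0.16, and their summed level lay between 166400 and 168610 CPM in Con and between 179230 and 186430 CPM in EX. The largest called changes among them were those of Myh2 (-0.75), the myosin of oxidative fast fibres, Mylpf (0.30), Myl1 (0.22) and Actn3 (0.20). Mybpc2 rose by 0.11 and Myom2 by 0.19 in the same mice. In bulk muscle, fewer fibres of a type and less RNA per fibre cannot be told apart.

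**Figure D4:**
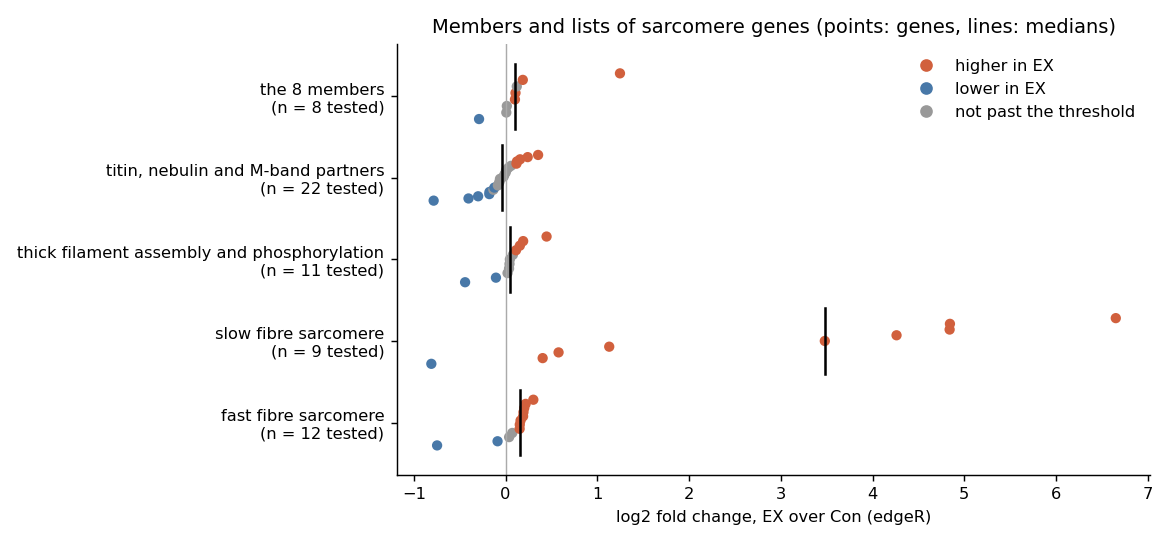
Log2 fold change of EX over Con (horizontal axis) of each tested gene in the member list and 4 lists of sarcomere genes (rows), with the list median as a black line. The slow fibre genes spread up to 6.65 while the members, Mybph aside, lie between -0.29 and 0.19.

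Markers of other cells and fibre states also moved. Of 3 tested genes of developing or regenerating fibres, 2 rose, Actc1 (1.65) and Myog (0.99), and the 3 tested genes together went from a range of 500.0 to 558.9 CPM in Con to one of 1563 to 1661 CPM in EX, most of it Actc1. Under the filter, embryonic myosin Myh3, singled out after its values were seen, received 14 to 16 counts per Con mouse and 115 to 128 per EX mouse, and the listed genes with no count in at least 1 Con mouse were Mymk, Mymx, Chrng and Lep, each with counts in all EX mice. All 3 tested genes of denervated fibres rose, Myog, Gadd45a (0.27) and Chrna1 (0.23), with a sum of 44.8 to 45.9 CPM in Con and 56.2 to 57.9 CPM in EX. Macrophage genes rose in 5 of 6 tested, with C1qc (1.26), C1qb (1.03), Csf1r (0.93) and C1qa (0.89) the largest and a sum of 33.8 to 37.0 against 63.9 to 70.9 CPM. Tendon genes rose in 5 of 7, led by Col1a1 (0.86), Tnmd (0.85), Fmod (0.79) and Col1a2 (0.61), from 428 to 445 to a range of 661 to 692 CPM. Fat cell genes rose in 3 of 4, Retn (1.55), Cidec (1.502) and Adipoq (1.19), while the sum of the 4, at 220 to 239 against 222 to 228 CPM, was nearly all Fabp4 (-0.09, adjusted p = 0.112), and 4 of 6 endothelial genes fell, Cdh5 (-0.26), Tie1 (-0.22), Pecam1 (-0.17) and Kdr (-0.14), from 627 to 645 to a range of 545 to 563 CPM. Their part in the changes of the members was not tested.

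Among the 5 tested genes whose profile over the 6 libraries was nearest to that of Mybph, by the root mean square difference of centred log2 CPM, were Atp2a2 (0.0799), Cfd (0.102), Cd209f (0.106) and Dkk3 (0.124). Atp2a2, the calcium pump of slow and cardiac muscle, went from 54.0 ± 0.876 to 118.2 ± 1.85 CPM (SD, n = 3 each, log2 fold change 1.13, adjusted p = 4.68e-17, edgeR). Cfd, adipsin, rose by 1.29 and Dkk3, a secreted Dickkopf family protein, by 1.03 on the log2 scale. Cd209f, a lectin gene, was at 0.505 CPM in Con and 1.31 CPM in EX and rests on few counts (adjusted p = 0.00237). This is a ranking by likeness over 6 libraries that differ mainly by group, and it describes these libraries only.

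**Figure D5:**
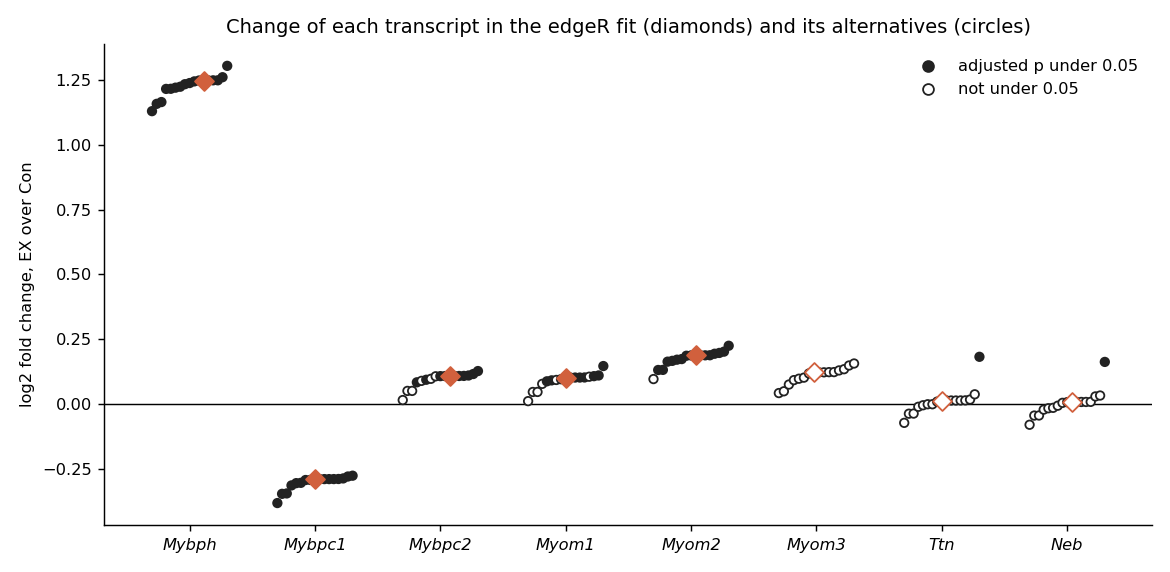
Log2 fold change of EX over Con (vertical axis) of each member in the edgeR fit (orange diamonds) and in its alternatives (circles, 15 for Myom3 and 16 for the others), sorted by value within a gene, with filled symbols at an adjusted p under 0.05. Mybph stays between 1.13 and 1.30 and Mybpc1 between -0.38 and -0.28, whereas Ttn and Neb lie on both sides of 0, in part with shifts of the median of all genes.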

How the data were processed

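Hind leg muscle RNA of 3 Con and 3 EX mice was sequenced by the authors on the DNBseq platform (150 bp paired ends), with 1 library per mouse. The paper names HISAT and GRCm39, the submitters' processing notes list cutadapt, featureCounts, MultiQC and GRCm38.p6, and whether counting used strand is not given in the sources used here. The authors deposited estimated counts (not normalized), FPKM and TPM per gene and library, and their group means were not used here. The counts of the 8 members were all whole numbers, and 4.18% to 4.44% of all values per library were not.

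Estimated counts were rounded and fitted with edgeR 4.0.16 in R 4.3.3 (glmQLFit and glmQLFTest, TMM, mean FPKM of 1 or more). P-values were adjusted by the Benjamini-Hochberg method at 0.05. Genes under the filter came from a fit without it. Shares, the Ttn to Neb ratio and implied lengths (count divided by FPKM and library total) were compared by exact two-sided permutation tests in scipy 1.17.1. Alternatives were 2 other filters, 2 other scalings, DESeq2 1.42.0, limma 3.58.1 on log2(FPKM + 0.1), log2(FPKM + 1) and log2(TPM + 0.1), length offsets, a replicate block and leaving out each library. Fold changes on those log scales understate the change of low genes. The tests were tested on simulated data with known changes. The replicate numbers of the 2 groups were not linked by the labels, and p-values measure the spread between mice.

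The members and lists were chosen with earlier results of these data known. Beside the members, named genes were the listed relatives, up to 4 called genes with the largest change from each other list, and the 5 genes nearest in profile to each called member with an absolute log2 fold change of at least 0.5. Some of the genes this rule names are not reported here. Adora1 and Myl12a are named because their exons overlap those of members in GENCODE M21. Upstream sequences are from RefSeq on GRCm38.p6. Counts per gene and 3 mice per group limit the precision, and no batch of sequencing or library preparation is given in the sources used here.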

Additional observations from a re-analysis of the deposited data

How the results depend on the processing

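Mybph (log2 fold change 1.13 to 1.30, largest adjusted p = 1.88e-06) and Mybpc1 (-0.38 to -0.28, largest adjusted p = 3.19e-04) kept direction and call in each of the 16 alternatives, and Myom3 stayed uncalled in the 15 that tested it, since it lay under a filter of 5 FPKM. The edgeR fit called 1949 genes, 991 higher and 958 lower, and DESeq2 called 1228, 643 and 585. Limma called 411 genes higher with log2(FPKM + 0.1), 411 with log2(FPKM + 1) and 340 with log2(TPM + 0.1), the last with 1684 lower. The called members numbered 3, 3 and 2 in these 3 limma fits, 4 with totals without the 20 most abundant genes, where Myom1 was lost (adjusted p = 0.0807), 7 with length offsets and between 3 and 5 when 1 library was left out. The number was 3 without replicate 2 of Con and without replicate 2 or 3 of EX, where Mybpc2 and Myom1 were lost, and the cause was not tested. The adjusted p of Mybpc2 lay between 0.00582 and 0.748 in these alternatives, and that of Myom1 between 0.00127 and 0.823. Myom2 was lost only with log2(TPM + 0.1).

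With length offsets Ttn (0.18) and Neb (0.16) were called higher, and in no other alternative were they called. Their sign against 0 changed in several alternatives, in part because the median of all genes moved, to -0.0251 with totals without the 20 most abundant genes, -0.0559 and -0.0487 with log2(FPKM + 0.1) and log2(FPKM + 1) and -0.0912 with log2(TPM + 0.1). In these 4 fits Ttn lay 0.0125 to 0.0192 and Neb 0.0051 to 0.012 above that median. With a filter of 5 FPKM they were -0.0003 and -0.0059, with totals without the 20 most abundant genes -0.0101 and -0.0157, with log2(FPKM + 0.1) -0.0367 and -0.0439, with log2(FPKM + 1) -0.0362 and -0.0436, and with log2(TPM + 0.1) -0.072 and -0.0793. When 1 library was left out, Ttn ranged from -0.0042 to 0.038 and Neb from -0.021 to 0.0333. With the replicate number as a block, 1782 genes and 5 members were called, and no call of a member changed. The deviations of same-numbered mice from their group means had correlations of -0.084, -0.052 and -0.073. With only 3 mice per group, these values cannot decide whether the samples were paired. Counts limit Myom3 and Nebl, and 3 mice against 3 limit the permutation tests to p = 0.1.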
